A study of Mus musculus with 32 samples.

Results

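The genes described here encode 9 subunits of the AP-1 family of transcription factors or their close partners: Fos, Fosb, Fosl1 and Fosl2 of the Fos family, Jun, Junb and Jund of the Jun family, Atf3, and the small Maf protein gene Maff. They were chosen by symbol from the 55401 mouse gene identifiers counted in each sample. All 9 were among the 15546 genes that reached 1 cpm, the read count of a gene scaled to library size, in at least 1 mouse, and each of them had at least 1.33 cpm in every mouse. Their messenger RNA was measured by RNA sequencing of dorsal epidermis from 32 mice, 1 library per mouse, in 8 groups of 4 defined by genotype, sex and treatment. UV mice received a single dose of 120 mJ/cm2 on the back and were sampled 24 h later. Control mice were handled alike without exposure. The labels give T0 for all control mice and T24 for all UV mice, so labelled time and UV cannot be told apart. All were 10 to 14 weeks old and of the SKH-1/SV129/BL6/J background, and the KO mice were littermates described as deficient for PPARbeta (PPARD-/-), a nuclear receptor. The type of the deletion and the cells that carry it are not given in the sources used here, and the tissue was whole epidermis separated from dermis, so each value is an average over all cells of the layer.

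AP-1 is a dimer in which a Jun protein pairs with another Jun protein or with a protein of the Fos or ATF families through a leucine zipper. Fos and Jun proteins are textbook immediate-early factors: mitogen-activated protein (MAP) kinases activated by growth factors, stress or UV phosphorylate the factors bound at their promoters, and the genes are switched on before new protein is made. In epidermis, AP-1 sites control keratin, involucrin, loricrin, cytokine and protease genes, and individual subunits have different effects on keratinocyte growth and differentiation.

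The promoters are shown because the stress-responsive members are known for binding sites of the CREB/ATF and AP-1 type close to their start sites. The set of RefSeq promoters used here held entries for 8 of the 9 genes, Fosl1 being the one without. The 120 bases before the start are printed 5′ to 3′ (GRCm38.p6) for the 6 genes with a match to TGACG or to TGACNTCA on either strand, and capitals mark the match.
Fos, chr12:85473770-85473889, plus strand: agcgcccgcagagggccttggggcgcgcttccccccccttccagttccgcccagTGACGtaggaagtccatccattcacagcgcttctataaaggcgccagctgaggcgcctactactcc
Fosb, chr7:19310046-19310165, minus strand: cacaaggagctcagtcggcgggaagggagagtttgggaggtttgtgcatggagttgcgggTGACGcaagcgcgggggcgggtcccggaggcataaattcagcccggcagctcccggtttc
Jun, chr4:95052223-95052342, minus strand: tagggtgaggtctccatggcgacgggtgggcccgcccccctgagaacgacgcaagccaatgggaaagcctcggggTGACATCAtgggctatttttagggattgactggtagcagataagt
Junb, chr8:84978749-84978868, minus strand: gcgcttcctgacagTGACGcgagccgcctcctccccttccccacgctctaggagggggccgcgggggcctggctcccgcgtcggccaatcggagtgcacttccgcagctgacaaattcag
Atf3, chr1:191183334-191183453, minus strand: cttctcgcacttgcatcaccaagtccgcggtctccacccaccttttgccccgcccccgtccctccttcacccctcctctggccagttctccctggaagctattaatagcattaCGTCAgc
Maff, chr15:79347400-79347519, plus strand: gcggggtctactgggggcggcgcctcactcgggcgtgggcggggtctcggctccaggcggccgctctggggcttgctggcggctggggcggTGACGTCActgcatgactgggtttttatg
The match lay 66 bases before the start in Fos, 60 in Fosb, 45 in Jun, 106 in Junb, 7 in Atf3 and 29 in Maff. In Jun the letters were those of TGACNTCA, in Maff both patterns overlapped in 1 palindrome, and in Atf3 the match was on the opposite strand. Among all 32851 promoters of that set, 11.7% held TGACG and 5.07% held TGACNTCA in the same window. The pattern TGANTCA, present in 3.41% of promoters, was not in the 120 bases of any of the 8 genes, and TATAAA, present in 6.34%, was in that of Fos. For Atf3 the RefSeq start lay 34706 bases from the outermost start of the gene in GENCODE, and for the Maff entry printed here 899 bases from it. Maff had 3 entries, of which the one at the GENCODE start held no match. The windows of Fosl2 and Jund, the 2 genes without a match, lay 671 and 1210 bases from the GENCODE start. These matches describe the letters only, and binding was not measured.

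Between 22919428 and 40653581 reads per mouse fell on genes, and mice of 1 group varied well beyond what read sampling alone gives. Suprabasal keratinocyte markers were at 58553 to 103478 summed cpm in control mice and at 7273 to 29910 after UV, whereas basal markers went from 5197 to 16033 summed cpm in controls to 16585 to 29498 after UV. Skeletal muscle markers ranged from 3.79 to 2832 summed cpm, and 9 mice of both treatments, none of them male controls, were above 1000 cpm. All fits were repeated without those mice, and calls of the 9 genes that changed are given below. The count of Ppard reads did not mark the KO mice as lacking the transcript: in controls it was 87.3 to 105 cpm in WT and 70.3 to 88.9 cpm in KO. After UV it was 252 to 326 cpm in WT and 175 to 239 cpm in KO (log2 difference −0.42, adjusted P value = 0.00114). Genotype is therefore that of the labels, and these counts do not check the deletion.

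After UV, 8 of the 9 genes rose in WT epidermis and the same 8 in KO epidermis. Jund was the exception, falling in WT and not passing the test in KO. Of all genes tested, 34.5% rose and 36.5% fell after UV in WT, and 37.3% rose and 33.5% fell in KO, so that a call by itself was common in this comparison. The median log2 fold change of the 9 genes was 1.28 in WT and 1.19 in KO, beside medians over all genes of −0.01 and 0.09. In bulk tissue, more RNA per cell and more cells of an expressing type cannot be told apart. In both genotypes the summed suprabasal markers fell and the summed basal markers rose in the UV mice, but single markers differed. Krt14, Itga6 and Itgb4 rose in both genotypes. Krt5 fell in WT (−0.50, adjusted P value = 0.0157) and did not pass in KO (0.25, adjusted P value = 0.223). Col17a1 did not pass in WT (−0.21, adjusted P value = 0.33) and rose in KO (0.45, adjusted P value = 0.0373). Of the suprabasal markers, only Sbsn did not pass in WT (−0.01, adjusted P value = 0.911). The part of these marker changes in the AP-1 values was not tested.

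**Figure D1:**
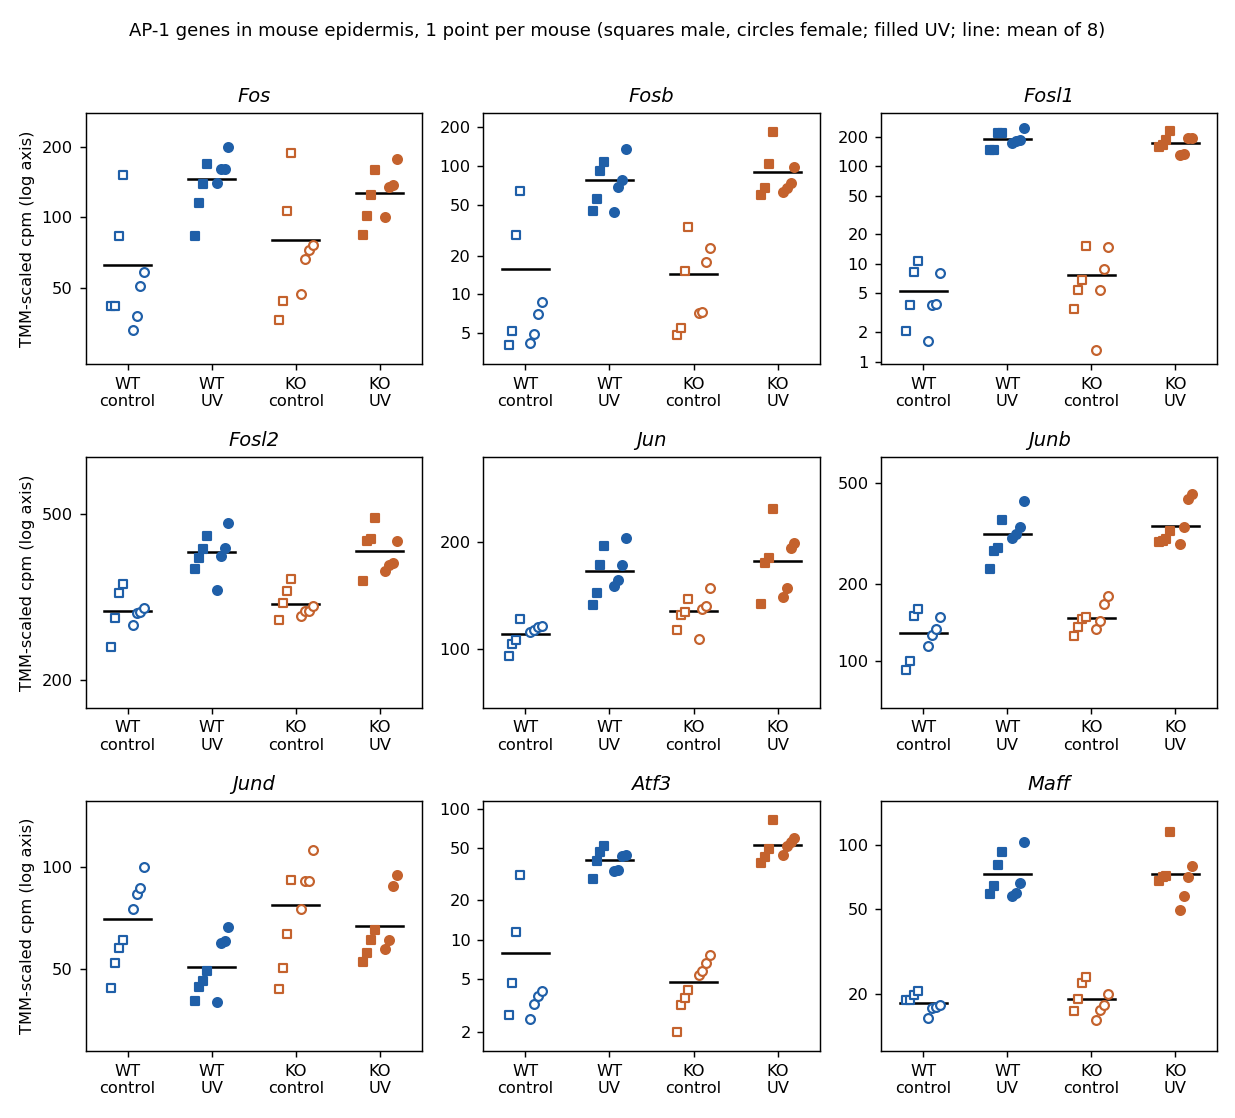
TMM-scaled cpm (log axis) of each of the 9 genes in every mouse, by genotype and treatment (squares male, circles female, open symbols control, filled symbols UV, lines the mean of 8 mice). Fosl1, Junb and Maff of all UV mice lay above all control mice of their genotype, whereas the ranges of Fos, Fosl2 and Jund overlapped.

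Fosl1, which encodes the Fos-related protein FRA1 (chr19:5447547-5455946, plus strand), had the largest response. In WT control males it was at 2.06, 3.83, 8.25 and 10.7 cpm and in WT UV males at 146, 147, 217 and 218 cpm. In WT females the controls were at 1.64, 3.78, 3.93 and 8.13 cpm and the UV mice at 174, 182, 183 and 247 cpm. No UV mouse came near the control range in either genotype. The KO controls ranged from 1.33 to 15.2 cpm (median 6.14) and the KO UV mice from 129 to 228 cpm (median 173). The log2 fold change was 5.18 (SE 0.41, adjusted P value = 7.28e-12) in WT, a 36.3-fold rise, and 4.49 (SE 0.39, adjusted P value = 6.87e-11) in KO, a 22.5-fold rise. The opposite-strand gene Ccdc85b, which overlaps Fosl1, was at 5.73 cpm or less in every mouse.

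Fos itself (chr12:85473890-85477273, plus strand), the prototype of the family, rose less and its control mice were uneven. Its level in WT control males was 41.8, 41.9, 83.4 and 153 cpm, and in WT UV males 83.2, 115, 139 and 169 cpm. WT control females were at 33.0, 37.7, 50.8 and 58.4 cpm, and WT UV females at 140.3, 161, 161 and 199.7 cpm. The females of the 2 treatments were thus apart, while 2 control males reached the range of the UV males. In KO, control males were at 36.5, 43.9, 106 and 189 cpm and UV males at 84.1, 101, 125 and 160.3 cpm, so that the highest of these 8 values was that of a control. KO control females were at 47.1, 66.2, 72.2 and 76.1 cpm and UV females at 100.2, 135, 138 and 178 cpm, without overlap. Fos changed by a log2 fold change of 1.27 (SE 0.28, adjusted P value = 0.000256) in WT and 0.70 (SE 0.28, adjusted P value = 0.0283) in KO. The call in KO was lost when any of 5 KO mice was left out (adjusted P value 0.0507 to 0.0853) and without the mice with high muscle markers (0.66, adjusted P value = 0.16).

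Fosb (chr7:19302696-19310051, minus strand), another immediate-early Fos gene, stood at a median of 6.07 cpm in WT controls (4.02 to 64.3) and 73.1 cpm in WT UV mice (43.7 to 136). In KO the medians were 11.2 cpm (4.85 to 33.6) and 70.6 cpm (59.9 to 184). In KO all UV mice were above all controls, whereas in WT 1 control male at 64.3 cpm lay inside the UV range. The log2 fold change was 2.63 in both genotypes (SE 0.48 in each, adjusted P value = 2.03e-05 in WT and 1.97e-05 in KO).

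Fosl2 (chr5:32135801-32157842, plus strand), which encodes FRA2 and was abundant before UV, moved least among the genes that rose. It went from 292 ± 30.7 cpm (SD, n = 8) to 404 ± 44.4 cpm in WT and from 304 ± 23.6 to 407 ± 47.6 cpm in KO. The lowest UV mouse of WT, at 329.7 cpm, and that of KO, at 346 cpm, lay below the highest control, at 341 and 349.8 cpm. The change was 0.47 (SE 0.08, adjusted P value = 4.03e-06) in WT and 0.42 (SE 0.08, adjusted P value = 1.98e-05) in KO on the log2 scale, a 1.38-fold and a 1.34-fold rise.

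Among the Jun genes, Junb (chr8:84974484-84978718, minus strand), whose protein restrains Jun activity in many settings, rose most. Its controls were at 92.2, 101, 151 and 160.1 cpm in WT males and 115, 127, 134 and 149 cpm in WT females, against 231, 270.4, 278 and 357 cpm in UV males and 304, 314, 335 and 422 cpm in UV females. No UV mouse of either genotype was within the control range, the KO values going from 126 to 180.1 cpm up to 286 to 449.9 cpm. The log2 fold change was 1.28 (SE 0.12, adjusted P value = 1.23e-10) in WT and 1.19 (SE 0.12, adjusted P value = 5.23e-10) in KO. Junb overlaps Prdx2 on the opposite strand, and the counting strand is not given in the sources used here. Prdx2 went from 283 to 119.5 cpm in WT and from 311 to 129.9 cpm in KO (means of 8 mice). The part of Prdx2 reads in the Junb counts was not tested.

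Jun (chr4:95049034-95052222, minus strand), the founding member of its family, rose by a log2 fold change of 0.59 (SE 0.11, adjusted P value = 1.48e-05) in WT and 0.47 (SE 0.11, adjusted P value = 0.000255) in KO. WT controls lay between 95.4 and 121 cpm (median 112) and WT UV mice between 133 and 206 cpm (median 164), with no overlap. In KO the controls at 107 to 148 cpm (median 128) met the UV mice at 133 to 248 cpm (median 178). The overlapping antisense gene Junos was at 3.05 cpm or less in every mouse.

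Jund (chr8:70698949-70700616, plus strand), whose messenger RNA is present in resting cells, was the only member that fell. In WT control males it was at 44.1, 52.1, 57.7 and 61 cpm and in WT UV males at 40.3, 44.4, 46.0 and 49.4 cpm. WT control females were at 75.3, 83.4, 86.3 and 99.8 cpm and WT UV females at 40.0, 59.4, 60.3 and 66.7 cpm. The WT females of the 2 treatments did not overlap, while the males did. In KO, control males were at 43.6, 50.4, 63.2 and 91.4 cpm and UV males at 52.4, 55.8, 60.8 and 65.1 cpm, a range lying inside that of the controls. KO control females were at 75.0, 91.0, 91.0 and 112 cpm and UV females at 57.2, 61.1, 87.7 and 94.9 cpm. The log2 fold change of Jund was −0.43 (SE 0.13, adjusted P value = 0.00518) in WT and −0.19 (SE 0.13, adjusted P value = 0.205) in KO. The opposite-strand gene Gm11175, which overlaps it, was at 1.97 cpm or less in every mouse.

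Atf3 (chr1:191170296-191218039, minus strand), a stress-induced gene of the ATF family, was low before UV. WT control males were at 2.70, 4.68, 11.5 and 31.2 cpm and WT UV males at 29.3, 39.9, 46.8 and 52.3 cpm. WT control females were at 2.52, 3.24, 3.76 and 4.08 cpm and WT UV females at 33.7, 33.9, 43.2 and 44.2 cpm. Apart from the 2 higher control males, the WT controls were at 4.68 cpm or less. KO controls were at 1.98, 3.21, 3.60 and 4.13 cpm in males and 5.43, 5.80, 6.73 and 7.61 cpm in females. The KO UV mice were at 38.8, 42.5, 48.8 and 82.0 cpm in males and 44.5, 52.2, 56.1 and 60.1 cpm in females, all above all KO controls. The log2 fold change was 2.63 (SE 0.31, adjusted P value = 1.93e-08) in WT and 3.55 (SE 0.32, adjusted P value = 1.44e-10) in KO, an 11.7-fold rise in the latter.

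Maff (chr15:79346621-79359076, plus strand), a small Maf protein gene that lacks a transactivation domain, rose in all UV mice. Its control mice lay between 15.5 and 20.7 cpm in WT (median 18.3) and 15.1 and 24.1 cpm in KO (median 18.3). The UV mice lay between 57.5 and 103 cpm in WT (median 65.3) and 49.5 and 115 cpm in KO (median 70.4), clear of the controls. The log2 fold change was 2.00 (SE 0.13, adjusted P value = 2.72e-13) in WT and 1.93 (SE 0.13, adjusted P value = 6.32e-13) in KO.

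With all UV mice above all control mice as the criterion, 4 genes passed in WT (Fosl1, Jun, Junb and Maff) and 5 in KO (Fosb, Fosl1, Junb, Atf3 and Maff). Over all genes tested, 21.3% passed it in WT and 18.6% in KO.

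**Figure D2:**
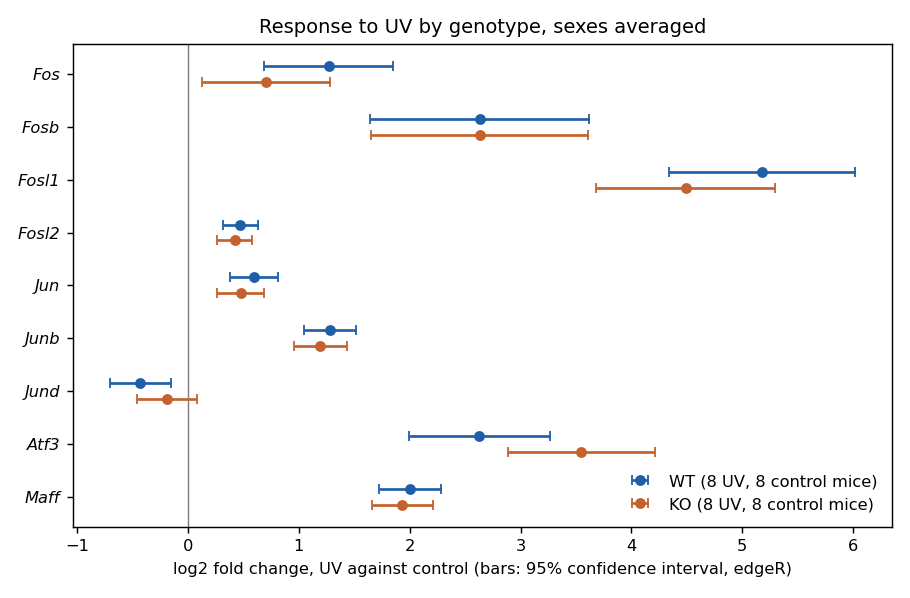
Log2 fold change of UV against control for each gene (horizontal axis) in WT and KO, the sexes averaged (points the edgeR estimate, bars the approximate 95% interval, 8 UV and 8 control mice each). Fosl1 lies farthest to the right at 5.18 and 4.49, Jund alone lies left of 0, and the intervals of the 2 genotypes overlap for every gene.

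Levels of different genes were compared per kilobase of exon (cpm per kb), since the exon lengths of the 9 genes run from 1668 to 9680 bases. Exon length was the number of bases in any annotated exon of the gene, over all its transcripts. It can exceed the length of the messenger RNA present, and the ranks, sums and shares rest on it. Junb had the highest mean level in all 4 combinations of genotype and treatment, with 55.9 ± 10.7 cpm per kb (SD, n = 8) in WT controls and 136 ± 25.5 in WT UV mice. Fosl1 moved from 8th of 9 in WT controls (2.60 ± 1.62 cpm per kb) to 2nd after UV (93.1 ± 17.6), and from 7th (3.78 ± 2.5) to 2nd (84.9 ± 16.5) in KO. Most neighbours in the order overlapped: in WT controls only Fos and Maff, the 5th and 6th, did not, in KO controls Fosl2 and Maff, and in KO UV mice Junb and Fosl1. Jund, 2nd in the controls of both genotypes, was 6th after UV.

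Summed per length, the 4 Fos genes came to 61.9 ± 18.2 cpm per kb in WT controls and 209 ± 30.5 after UV, and the 3 Jun genes to 132 ± 19.4 and 219 ± 37.2. In KO the Fos genes came to 71.3 ± 19.7 and 196 ± 29.4 and the Jun genes to 151 ± 18.9 and 243 ± 41.7. The ratio of the Fos to the Jun sum was 0.329 to 0.732 in WT controls and 0.876 to 1.08 in WT UV mice, so the 2 ranges were apart. In KO it was 0.342 to 0.787 and 0.617 to 1.07, and the ranges met. Fosl1 made up 1.24% ± 0.676 of the summed level of the 9 genes in WT controls and 19.6% ± 1.54 after UV, and 1.63% ± 1.08 and 17.2% ± 1.88 in KO. Jund made up 20.5% ± 5.34 and 6.43% ± 0.953 in WT and 20% ± 5.54 and 8.12% ± 1.17 in KO. These shares are of messenger RNA, and protein was not measured.

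**Figure D3:**
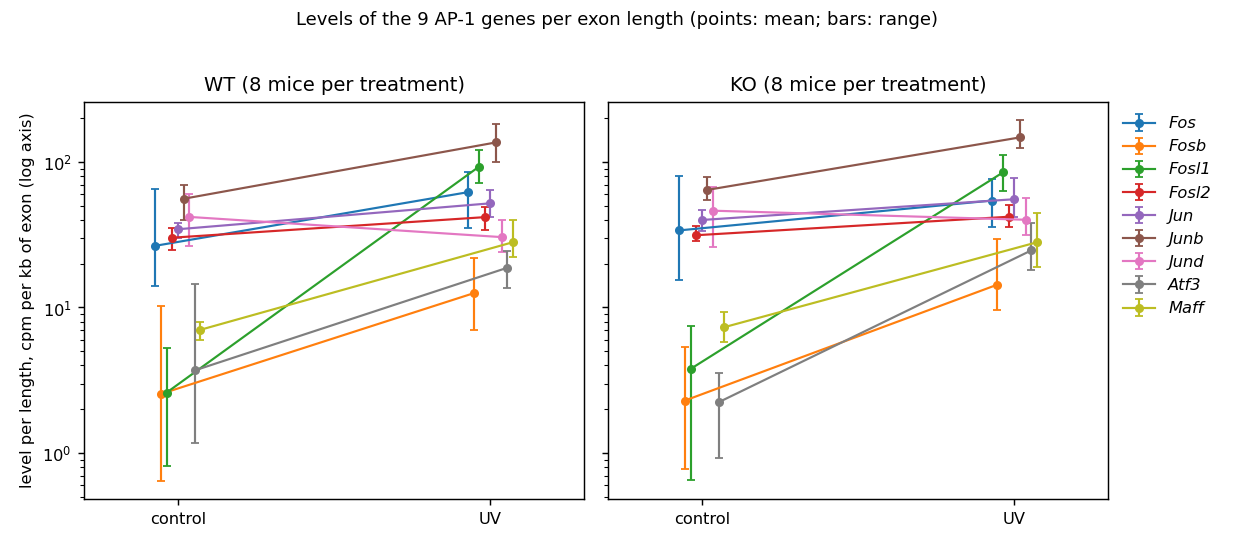
Mean level of each gene in cpm per kb of exon (log axis) in control and UV mice, WT at left and KO at right (points the mean of 8 mice, bars the lowest and highest mouse). Fosl1 climbs from the lowest 3 to the 2nd place in both genotypes while Junb stays highest.

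The KO mice allowed the question whether the response of these genes depended on the genotype. None of the 9 genes passed the test of the genotype-by-UV interaction, the KO change minus the WT change, which 0.765% of all genes passed. At an unadjusted P value under 0.05 there was 1, Atf3, at 0.92 on the log2 scale (SE 0.42, 95% interval 0.06 to 1.78, adjusted P value = 0.225), and DESeq2 and limma-trend also called 0. The SEs and intervals of the interaction are approximate, being derived from the test statistic, so the lower end near 0 for Atf3 is uncertain. Without WT control male replicate 4 the Atf3 value was 0.42. The mean of Atf3 after UV was 40.4 ± 7.72 cpm in WT and 53.1 ± 13.6 cpm in KO (SD, n = 8). The interaction was −0.57 for Fos (95% interval −1.38 to 0.24) and −0.69 for Fosl1 (−1.71 to 0.32), intervals that span 0 and reach below −1. Without KO control male replicate 1 the Fos value was −0.30. The Fosl1 value was −0.45 without KO control male replicate 3, −0.43 without KO control female replicate 3 and −1.39 without the mice with high muscle markers (adjusted P value = 0.18), which leaves 2 mice in some groups. It was closer to 0 for Fosl2 (−0.05, −0.27 to 0.17), Jun (−0.12, −0.42 to 0.19), Junb (−0.09, −0.42 to 0.24) and Maff (−0.07, −0.45 to 0.31). For Jund, called as falling in WT only, it was 0.24 (−0.14 to 0.63, adjusted P value = 0.498), so a genotype difference was not shown. For Fosb it was 0.00 with an interval from −1.54 to 1.54, and it turned negative under another normalization, filter or tool.

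Between KO and WT controls edgeR called none of the 9 genes (0 at an unadjusted P value under 0.05), where 0.206% of all genes were called, and DESeq2 and limma-trend also called 0. The largest differences were 0.56 for Fosl1 (SE 0.36) and −0.53 for Atf3 (SE 0.31). Neither value was steady: Fosl1 was 0.28 without KO control male replicate 3, 0.29 without KO control female replicate 3 and 1.18 without the mice with high muscle markers, and Atf3 was −0.03 without WT control male replicate 4 and −0.24 with limma-trend. After UV again 0 were called, against 3.31% of all genes, and also 0 by DESeq2 and limma-trend. Jund was the 1 gene under 0.05 without adjustment, at 66.9 ± 15.7 cpm in KO and 50.8 ± 10.1 cpm in WT (0.39, SE 0.13, adjusted P value = 0.0907). Fosl2, at 404 cpm in WT and 407 cpm in KO after UV, differed by 0.01 (95% interval −0.15 to 0.16), and the sign of that value changed with the normalization.

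The study compared male and female epidermis, and the same question was put to the 9 genes in each genotype. In WT males 7 rose (29.8% of all genes did), and Fos and Jund did not pass. In WT females 8 rose and Jund fell, beside 30.1% and 31.1% of all genes. In KO males 7 rose, beside 30.9% of all genes, again without Fos and Jund, and in KO females 8 rose, beside 34%. Without the mice with high muscle markers the KO female count was 4 (Fosl1, Junb, Atf3 and Maff), with 2 control and 2 UV mice left.

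**Figure D4:**
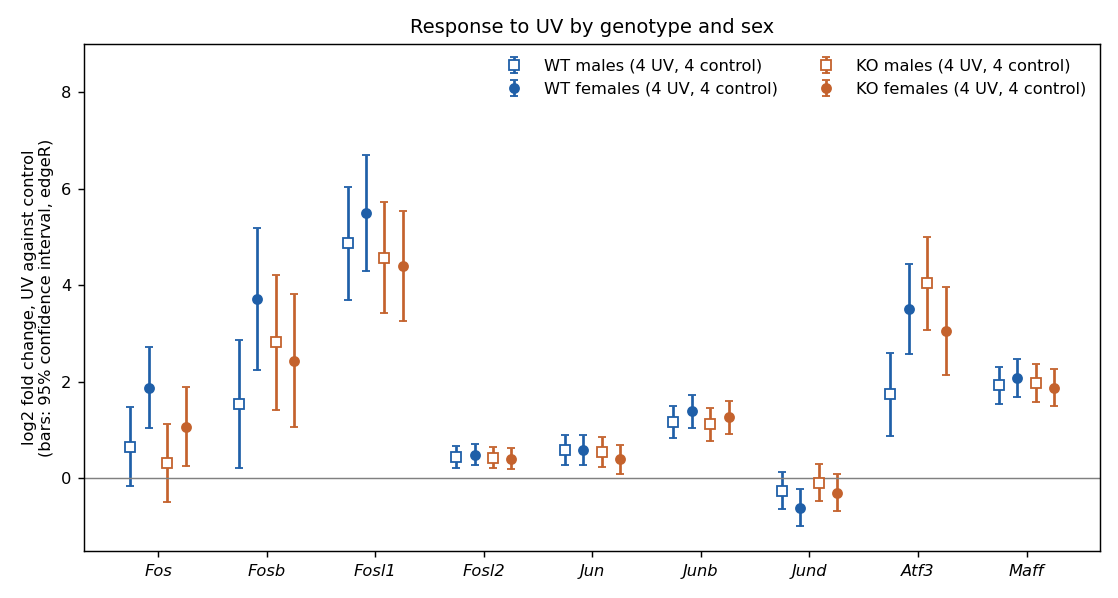
Log2 fold change of UV against control (vertical axis) for each gene in WT males, WT females, KO males and KO females (points the edgeR estimate, bars the approximate 95% interval, 4 UV and 4 control mice each). Fosl2, Jun, Junb and Maff sit at nearly the same height in all 4, whereas Fos, Fosb and Atf3 spread out.

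Atf3 changed by 1.74 (SE 0.42) in WT males and 3.51 (SE 0.46) in WT females. Fosb changed by 1.55 (SE 0.65) and 3.71 (SE 0.71), and Fos by 0.66 (SE 0.40, adjusted P value = 0.154) and 1.88 (SE 0.41). The differences between the sexes, 1.77 for Atf3 (SE 0.59), 2.17 for Fosb (SE 0.92) and 1.22 for Fos (SE 0.56), were 3 of the 9 under 0.05 without adjustment by edgeR. None held after adjustment over all genes, where all 3 adjusted P values were 1.00 and 0.00% of all genes were called, and DESeq2 (3 at an unadjusted P value under 0.05) and limma-trend (0) also called 0 of the 9. The 2 WT control males with the highest levels of these genes stood well above the other 2: 1 had Fos at 83.4, Fosb at 64.3 and Atf3 at 31.2 cpm, and the other Fos at 153, Fosb at 29.0 and Atf3 at 11.5 cpm. Without the latter, replicate 1 of the WT control males, Fos rose in WT males too (1.18, adjusted P value = 0.0125). Without the former, replicate 4, the rise in WT males was 2.74 for Atf3 and 2.56 for Fosb, and their differences between the sexes were 0.77 and 1.16, while that of Fos was 0.70 without replicate 1. With limma-trend the Fosb difference was 1.32 and its rise in WT males 2.32. The rise of Fosb in WT males (adjusted P value = 0.0409) was lost when any of 5 mice of that sex and genotype was left out (adjusted P value 0.06 to 0.121).

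In KO the sex-by-UV interaction had 0 members called (0 at an unadjusted P value under 0.05, 0 by DESeq2 and limma-trend), beside 0.00% of all genes. The estimates were −0.98 for Atf3 (SE 0.60), −0.38 for Fosb (SE 0.91) and 0.75 for Fos (SE 0.56). The value of Fos was 0.13 without KO control male replicate 1 and 0.47 with limma-trend. That of Fosb ranged from −1.26 without KO control male replicate 3 to −0.03 without KO control female replicate 3, and was −0.81 without the mice with high muscle markers. Fos in KO males changed by 0.32 (SE 0.40, adjusted P value = 0.495) and in KO females by 1.08 (SE 0.40, adjusted P value = 0.0221). Without replicate 1 of the KO control males, whose Fos was 189 cpm, the change in males was 0.92 (adjusted P value = 0.0407). The Fos change in KO males was 0.09 without replicate 2 and 0.06 without replicate 3 of the KO control males, 0.16 without KO UV male replicate 1, 0.17 without the mice with high muscle markers and 0.60 with limma-trend.

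Between the sexes without UV, genotypes averaged, Jund was 1 gene of the 9 called, where 6.86% of all genes were. It was 0.63 (SE 0.13, adjusted P value = 0.00664) higher in females on the log2 scale, with WT females all above WT males and KO females above 3 of the 4 KO males. Fosb and Fos were lower in female controls by point estimate, at −1.06 (SE 0.47, adjusted P value = 0.153) and −0.68 (SE 0.28, adjusted P value = 0.133), both under 0.05 before adjustment. Fosb was −0.56 without WT control male replicate 4, −0.64 without KO control male replicate 3 and −0.53 with limma-trend, and Fos −0.38 without KO control male replicate 1, −0.42 without WT control male replicate 1 and −0.44 with limma-trend. After UV, 0 of the 9 were called by edgeR, 2 (Junb and Jund) at an unadjusted P value under 0.05, and 0 by DESeq2 and limma-trend, beside 3.03% of all genes.

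Whether the genes went up and down together from mouse to mouse was asked with the group means removed, over 16 control and 16 UV mice, in 72 relations. Among control mice 4 of 36 pairs passed for both Pearson's r and Spearman's rho after adjustment (permutation test within groups, two-sided), with a median r of 0.0589. Among UV mice 17 of 36 passed, with a median r of 0.667. The difference between the 2 treatments was not tested, and pairs share genes and are not independent. The share of passing pairs among all other genes was not computed. The counts therefore do not show that these genes move together more than other genes do.

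**Figure D5:**
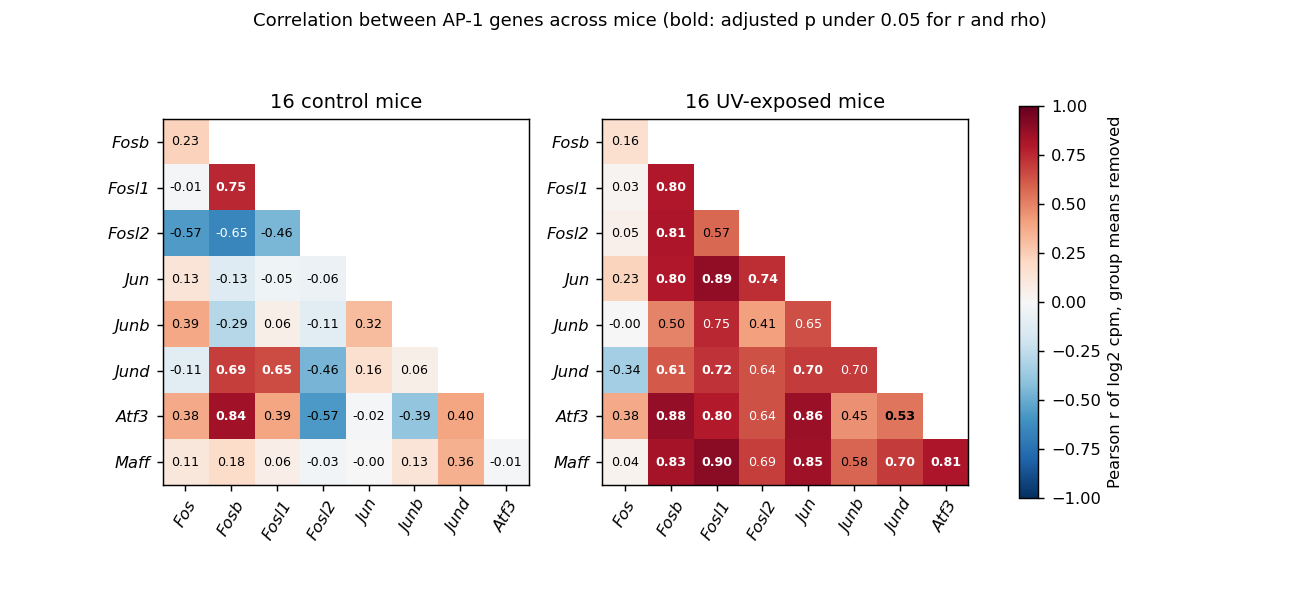
Pearson's r of log2 cpm between each pair of the 9 genes, with group means removed, in 16 control mice (left) and 16 UV mice (right), colour from −1 to 1, bold where r and rho both had an adjusted P value under 0.05. In UV mice r is lower in the pairs with Fos, in the first column (−0.340 to 0.376), than in most of the others.

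In UV mice the closest pair was Fosl1 and Maff, with r = 0.904 (permutation P = 0.00111, adjusted 0.00888) and rho = 0.815 (permutation P = 0.00104, adjusted 0.0103), and r = 0.887 without the 2 mice farthest from the median of Fosl1. Fosl1 and Jun had r = 0.890 (permutation P = 0.00066, adjusted 0.00888) and rho = 0.874 (adjusted 0.00624), and 0.860 without 2 mice. For Fosb and Atf3 r was 0.877 (permutation P = 7e-05, adjusted 0.00252), rho 0.891 (adjusted 0.00144), and r 0.848 without 2 mice. These high values had a mouse at the top in common: KO UV male replicate 1 had the highest Fosb (184 cpm), Atf3 (82.0), Jun (248) and Maff (115) of all 32 mice. That mouse also had the highest percentage of reads without a gene feature (9.75%). Fos stood apart, none of its 8 pairs passing in UV mice (r from −0.340 to 0.376), and none passing in controls. In controls the pairs that passed were Fosb with Atf3 (r = 0.838), Fosl1 (0.754) and Jund (0.690), and Fosl1 with Jund (0.654). The percentage of reads outside genes moved the same way as the genes in UV mice (median r 0.565 over the 9), as did the suprabasal markers (0.395). The scaling factor (median r −0.446), the basal keratinocyte markers (−0.440) and the number of reads on genes (−0.387) moved the other way. None of the 162 relations with such measures passed. Their part in the correlations was not tested.

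The genes most like 3 of the members over the 32 mice, group means removed, are given as a description. For Fos they were Dusp1 (r = 0.874), a phosphatase that inactivates MAP kinases, Egr1 (0.807), a zinc finger immediate-early factor, Kdelr3 (0.760), Gm8130 (0.757) and Gm45133 (0.702). For Fosl1 they were Tnfrsf12a (0.788), the TWEAK receptor, Ptgs2 (0.765), the inducible cyclooxygenase, Ccdc86 (0.764), Epgn (0.754), an EGF receptor ligand, and Fosb (0.745). For Maff the 5 were Nrbp1 (0.928), Ppp1r15a (0.904), a phosphatase subunit of the stress response, Vamp2 (0.901), Rnf167 (0.898) and Cnppd1 (0.898).

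The genes around AP-1 were counted from 6 lists, against the same percentages of all genes as above. Of 11 MAP kinase phosphatases, which switch off the kinases upstream of AP-1, 10 rose in WT and 9 in KO and none fell (median log2 fold change 1.66 and 1.44). By the mean of the genotypes Dusp9 (3.94 in WT and 4.54 in KO) and Dusp10 (2.64 and 3.26) rose most. Of 20 other immediate-early genes 17 rose and none fell in each genotype (medians 1.00 and 0.78), among them Arc (3.64 and 2.82) and the nuclear receptor gene Nr4a2 (2.52 and 3.22). Of 23 genes of the MAP kinase cascade itself 6 rose and 12 fell in WT, and 6 rose and 13 fell in KO (medians −0.21 and −0.26). The kinase genes Rps6ka4 (1.05 and 0.83) and Map2k1 (1.01 and 1.03) rose, and Map2k6 (−2.76 and −3.04) and Map3k1 (−1.51 and −1.46) fell.

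Of 10 AP-1 relatives and Maf genes, 2 rose and 3 fell in WT and 4 rose and 4 fell in KO (medians −0.02 and 0.61). Mafk (2.83 in WT and 2.74 in KO) and Mafg (1.02 and 1.19), the other small Maf genes, rose as Maff did, and Creb5 (−1.80 and −0.83) and Maf (−0.80 and −0.71) fell. Of 10 genes for serum response factor, ternary complex factors and related regulators, 3 rose and 3 fell in WT and 3 rose and 4 fell in KO (medians −0.03 and −0.05). Elk3 (2.92 and 3.12) and Srf (1.27 and 1.10) rose, and Mrtfb (−1.44 and −1.39) and Elk1 (−0.54 and −0.53) fell.

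Of 19 textbook AP-1 targets, 15 rose and 2 fell in WT and 16 rose and 2 fell in KO (medians 1.55 and 1.85). The protease gene Mmp10 (5.43 in WT and 5.59 in KO) and Ptgs2 (4.97 and 4.64) rose most by the same mean, and the 2 that fell were the cornified envelope genes Lor (−2.38 and −2.54) and Ivl (−0.58, adjusted P value = 0.0488, and −1.08). Lor is also a suprabasal marker. The genotype-by-UV interaction was called for 3 genes of the 6 lists, Areg (−0.95, SE 0.20, adjusted P value = 0.0193), an EGF receptor ligand, Klf10 (−0.59, SE 0.11, adjusted P value = 0.00735) and the gelatinase gene Mmp9 (1.66, SE 0.39, adjusted P value = 0.0385). Areg was higher in KO controls than in WT controls (0.72, adjusted P value = 0.0233). After UV, Klf10 was lower (−0.29, adjusted P value = 0.0317) and Mmp9 higher (1.25, adjusted P value = 0.0161) in KO. Whether the calls of these 3 genes held without the mice with high muscle markers was not examined. KO UV female replicate 2 stood apart with neutrophil and monocyte markers at 560 summed cpm. These were at most 122 in WT UV mice, and the next highest KO UV mouse, female replicate 4, was at 221. Its dermal fibroblast markers were at 2187 summed cpm in replicate 2, against at most 106 in any other mouse. Muscle markers of replicate 2 were at 1984 summed cpm, high as in other mice such as KO UV female replicate 1 (2031). The part of these markers in the Mmp9 values was not tested.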

How the data were processed

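Total RNA of mouse epidermis was made into stranded mRNA libraries. The labels give RNA quality numbers (RQN) of 6.4 to 8.4, and the paper states a higher range. The authors deposited read counts per gene (htseq-count), whole numbers without normalization, for 55401 identifiers in each of 32 mice. The submitters' processing notes name bcl2fastq, cutadapt 1.8, STAR 2.5.3a, HTSeq 0.9.1 and GRCm38. The strand setting of the counting is not given in the sources used here. Groups came from the labels, which name no batch. Rows of reads without a gene (6.80% to 9.75% no feature, 1.28% to 1.56% ambiguous) were left out. Symbols and coordinates came from GENCODE M21 (GRCm38), promoters from RefSeq (GRCm38.p6).

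The 15546 genes that reached 1 cpm in any mouse were scaled with TMM and fitted in edgeR 4.0.16 (R 4.3.3) by the quasi-likelihood test, with 8 group means over 32 mice and the sexes weighted equally in contrasts of genotype and treatment. P values were adjusted by Benjamini-Hochberg over all genes, and a gene was called at an adjusted P value under 0.05. Each SE of a log2 fold change is its absolute value divided by the square root of the quasi-likelihood F. The 95% intervals were built from these SEs. Both are therefore approximate and are not the standard errors of the fitted model. The SE of an interaction need not match those of the changes it compares. Calls rest on the P values. Each mouse is a separate animal. Correlations used log2 cpm with a prior count of 1 and 100000 permutations within groups. The alternatives were RLE scaling, filterByExpr, no filter, limma-trend (limma 3.58.1), DESeq2 1.42.0, an additive sex term, a fold change over 1.5, fits of 1 genotype or treatment, and leaving out each mouse. Leaving out 9 mice with muscle markers above 1000 cpm, the sex contrasts with genotypes averaged, and the single genes followed by sex were chosen after seeing the data. The scripts were tested on simulated data.

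The 9 genes, the 6 pathway lists and the 10 marker lists were chosen with earlier results of these data known. All 9 genes are named. From each list the 2 largest rises and 2 largest falls by the mean of the genotypes are named among genes called with the same sign in both genotypes and with a mean of at least 10 counts, together with every gene called between genotypes. The 5 genes most like Fos, Fosl1 and Maff are those of highest Pearson correlation. The marker lists other than those in the results gave these summed cpm ranges over all mice: T cell 17.2 to 198, Langerhans cell 356 to 1074, neutrophil and monocyte 30.5 to 560, dermal fibroblast 1.76 to 2187, adipocyte 0 to 4.55, endothelial cell 0.413 to 24.7 and melanocyte 0.496 to 13.4.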

Additional observations from a re-analysis of the deposited data

Results flagged for a closer look

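In 2 of the 72 combinations of gene and group, 1 mouse lay far from the other 3 by Dixon's test, which flags about 1 in 20 groups by chance. Fosl1 was at 247 cpm in replicate 2 of the WT UV females, against 174 to 183 cpm in the other 3. Maff was at 115 cpm in replicate 1 of the KO UV males, against 67.7 to 71.9 cpm in the other 3. Leaving out single mice kept the UV log2 fold change of Fosl1 in WT between 5.04 and 5.42 and that of Maff in KO between 1.79 and 1.98.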

How the results depend on the processing

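No paired analysis was possible because replicate numbers were given in accession order and pair no mice. The count of genes called kept within 1.5 times of its value in 91 of 92 settings and in all 352 fits without 1 mouse. The exception was UV in KO females without the mice with high muscle markers, with 4 in place of 8. There Fos was 1.15 (adjusted P value = 0.157) and Fosb 1.63 (adjusted P value = 0.18). With a fold change over 1.5 also required, UV against control called 7 genes in WT, in place of 9, and 6 in KO, in place of 8. Fosl2 in both genotypes, Jund in WT and Jun in KO fell short of that fold change. The UV fold changes in WT and KO kept their call in 142 of 144 settings and 571 of 576 fits without 1 mouse. Those that did not were all of Fos in KO: no filter (0.65, adjusted P value = 0.0508), without the muscle mice (0.66, adjusted P value = 0.16), and without KO control male replicate 2 or 3, KO UV male replicate 1, KO control female replicate 3 or KO UV female replicate 3. Fos in KO females also lost its call without each of the latter 2 (adjusted P value 0.0635 and 0.069). Fosb in WT males was 1.55 (adjusted P value = 0.0519) in WT mice alone and 1.35 (adjusted P value = 0.115) without the muscle mice. Jund in KO females fell without KO control male replicate 3 (−0.38, adjusted P value = 0.0428) or KO UV female replicate 4 (−0.52, adjusted P value = 0.0254). The cause was not tested.

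Values near 0 changed sign. The genotype-by-UV value of Fosb was −0.0393 with RLE scaling, −0.0287 with filterByExpr, −0.046 with no filter, −0.12 with limma-trend, −0.0437 with DESeq2 and −0.61 without the muscle mice. Fosl2 in KO against WT after UV was −0.0136 with RLE scaling, −0.02996 with filterByExpr, −0.037 with no filter, −0.0136 with DESeq2, −0.0041 in UV mice alone and −0.0672 without the muscle mice, where Fosb was −0.0903 and Jun −0.0476. Without 1 mouse, the genotype-by-UV value ranged from −0.50 to 0.36 for Fosb and −0.21 to 0.0194 for Maff. KO against WT after UV ranged from −0.0602 to 0.0507 for Fosl2, −0.15 to 0.0889 for Maff, −0.0646 to 0.35 for Fosb and −0.0273 to 0.16 for Jun, without UV from −0.23 to 0.68 for Fosb, and UV in KO males from −0.21 to 0.17 for Jund. Without the 2 mice farthest from the median of Fosb, its r was 0.739 with Atf3 in controls and 0.692 with Fosl2, 0.677 with Jun and 0.681 with Maff after UV.

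The background of the genotype comparisons moved far more. KO against WT after UV called 418 genes higher and 96 lower, and 8 and 32 in UV mice alone, 9 and 17 without the muscle mice, 376 and 159 with RLE scaling, 361 and 259 with filterByExpr, 178 and 85 with no filter, 187 and 73 with limma-trend and 724 and 392 with DESeq2. The interaction called 80 higher and 39 lower, 76 and 59 with RLE scaling, 69 and 62 with filterByExpr, 24 and 31 with no filter, 425 and 367 with DESeq2, and 13 and 17 without the muscle mice. Without UV it was 23 and 9 genes, 52 and 26 with DESeq2, 12 and 3 in control mice alone and 14 and 4 without the muscle mice. With DESeq2 the sex-by-UV interaction called 3 genes higher in WT, and 26 higher and 9 lower in KO. None of the 9 genes was among the calls of these settings.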
